A study of Mus musculus with 8 samples.

Results

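H3K27ac peaks were examined at 10 genes that mark astrocytes or neural progenitors, among the 21951 protein-coding genes of the mouse annotation GENCODE M21: Gfap, Vim, Nes, Slc1a2, Slc1a3, Glul, Aqp4, Aldh1l1, S100b and Cd44. The genes were picked by name as markers of these cells, and every peak that overlapped the gene body or lay within 20 kb of it was taken, which gave 24 of the 28924 peaks of the proliferating list and 23 of the 27965 peaks of the differentiating list. The peaks come from chromatin immunoprecipitation followed by sequencing (ChIP-seq) with a Millipore antibody to acetylated lysine 27 of histone H3 (H3K27ac) in Oli-neu cells, a mouse line of oligodendrocyte progenitors (OPCs) from embryonic tissue, with C57BL/6 as the labelled strain. The proliferating cells grew with bFGF and Pdgf-BB, and the medium also held T3 and L-thyroxine. The differentiating cells were kept without growth factors for 1 day with 1 µM PD174265, an erb inhibitor. The study's culture methods give a longer differentiation for these cells than the label does. Each state had 1 library and no replicate, so the values of the 2 states are set side by side without a test. Read counts are not part of the deposited lists, and the depth at any peak is therefore unknown. Each library came from a bulk culture, so acetylation in a small share of the cells and weak acetylation in all of them cannot be told apart. The ATAC-seq samples of the series (3 siCtr and 3 siPadi2) were not analysed here.

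H3K27ac is deposited on nucleosomes at active promoters and enhancers, and a peak is a region where immunoprecipitated fragments were enriched. Astrocytes are the glia that take up glutamate, buffer ions and water and line the blood vessels of the brain, and their usual markers are an intermediate filament, transporters, a water channel and metabolic enzymes. Many of these genes are also used by radial glia and other neural progenitors, from which astrocytes and the oligodendrocyte lineage both arise, and several of them can be transcribed in OPCs as well. A histone mark at a gene is not a measure of its RNA or protein.

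The sequences below belong to the regions on which the account turns. Those of Glul, S100b and Vim are the 250 bases before a start site covered by a peak in both states, and that of Gfap is the 250 bases before its coding start site, where neither list had a peak. The Nes sequence is the whole of the intron peak in proliferating cells, and the Slc1a3 sequence is 300 bases of the upstream region that both lists share. They are given 5′ to 3′ on the strand of the gene, on GRCm38.p6 with the RefSeq sequence. Capitals mark matches on either strand to TATAAA, a core promoter box, to CCAAT, the box bound by NF-Y, and to GGGCGG, the box bound by SP1. They also mark TTCNNNGAA, read by STAT factors, TGANTCA, read by AP-1, and ACAAAG, read by SOX factors. The NFI palindrome was searched too, and no capitals of one motif overlap those of another.
Glul, chr1:153899679-153899928, plus strand: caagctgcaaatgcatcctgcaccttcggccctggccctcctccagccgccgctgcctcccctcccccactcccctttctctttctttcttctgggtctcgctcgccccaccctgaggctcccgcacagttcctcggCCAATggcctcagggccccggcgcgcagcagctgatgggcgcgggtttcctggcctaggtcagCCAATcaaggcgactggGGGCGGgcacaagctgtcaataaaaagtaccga
S100b, chr10:76253586-76253835, plus strand: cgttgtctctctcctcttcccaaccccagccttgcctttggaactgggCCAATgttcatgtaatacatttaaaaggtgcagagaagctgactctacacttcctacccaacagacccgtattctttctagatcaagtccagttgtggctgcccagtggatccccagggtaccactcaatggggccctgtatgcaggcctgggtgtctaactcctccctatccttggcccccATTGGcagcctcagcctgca
Vim, chr2:13573677-13573926, plus strand: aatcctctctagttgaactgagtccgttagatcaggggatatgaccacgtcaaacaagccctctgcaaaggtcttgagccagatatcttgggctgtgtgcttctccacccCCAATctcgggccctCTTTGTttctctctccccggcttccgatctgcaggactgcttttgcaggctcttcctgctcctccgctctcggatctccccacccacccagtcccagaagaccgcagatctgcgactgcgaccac
Gfap, chr11:102897201-102897450, minus strand: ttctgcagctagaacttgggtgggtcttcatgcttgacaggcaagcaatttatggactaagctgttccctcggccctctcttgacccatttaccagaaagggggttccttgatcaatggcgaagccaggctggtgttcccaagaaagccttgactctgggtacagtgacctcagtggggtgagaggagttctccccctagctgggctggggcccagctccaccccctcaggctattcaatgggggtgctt
Nes, chr3:87974069-87974331, plus strand: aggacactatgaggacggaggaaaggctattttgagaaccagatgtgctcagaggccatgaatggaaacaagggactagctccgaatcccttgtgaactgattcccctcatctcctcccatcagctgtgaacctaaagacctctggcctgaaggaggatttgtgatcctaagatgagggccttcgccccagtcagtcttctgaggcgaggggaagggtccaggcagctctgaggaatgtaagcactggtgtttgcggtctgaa
Slc1a3, chr15:8716894-8717193, minus strand: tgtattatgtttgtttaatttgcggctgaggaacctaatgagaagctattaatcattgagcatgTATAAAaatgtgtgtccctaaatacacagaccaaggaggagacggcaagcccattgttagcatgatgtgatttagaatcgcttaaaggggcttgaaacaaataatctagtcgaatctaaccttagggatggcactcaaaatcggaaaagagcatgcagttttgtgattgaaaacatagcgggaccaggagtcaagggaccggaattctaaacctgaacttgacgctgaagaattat

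Of the 10 genes, 9 had a peak over the gene body or within 20 kb in proliferating cells and 8 had one in differentiating cells. Among all protein-coding genes the same share was 62.7% for proliferating and 62.7% for differentiating cells. A peak in either list was present at 9 of the 10 genes, against 72.4% of all genes, and a peak in both lists at 8, against 53.1%. Aqp4 was the gene without a peak in either list, and Slc1a2 had peaks in proliferating cells alone. Longer genes have wider windows and chromosomes differ in their density of peaks, so these shares were not read as particular to the markers. Gene windows on chromosome 15, where Slc1a3 lies, held a peak for 93.1% of genes in proliferating and 93.0% in differentiating cells. On chromosome 3, where Nes lies, these shares were 62.1% and 63.7%.

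The promoter region began 3000 bp before the transcription start site (TSS) of the gene record and ended 100 bp after it. In proliferating cells 5 of the 10 genes had a peak there (Glul, S100b, Vim, Cd44 and Slc1a3), against 23.7% of all protein-coding genes. In differentiating cells 3 had one (Glul, S100b and Vim), against 27.7% of all genes. The same 3 genes had a promoter peak in both lists, against 17.6% of all genes, and 5 had one in either list, against 33.8%. No gene had a promoter peak in differentiating cells alone by this definition. With the TSS of every transcript in place of the gene record, 5 genes had one in proliferating cells, against 31.3% of all genes, and 5 in differentiating cells, against 35.3%. Cd44 and Aldh1l1 were the genes added in differentiating cells, and Aldh1l1 then had a promoter peak in that list alone. That peak counted only through Aldh1l1-204, a transcript annotated as a retained intron that starts inside the gene. Among the coding transcripts of Aldh1l1 the nearest start site, that of Aldh1l1-206, was 37322 bp away from that peak. The start site of the neighbouring gene Slc41a3 was nearer, at 16282 bp. With the gene record, the promoter regions of the other 5 genes held no peak of either list, and these genes were Gfap, Aqp4, Aldh1l1, Slc1a2 and Nes. With so few genes the differences between these shares were not tested.

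**Figure D1:**
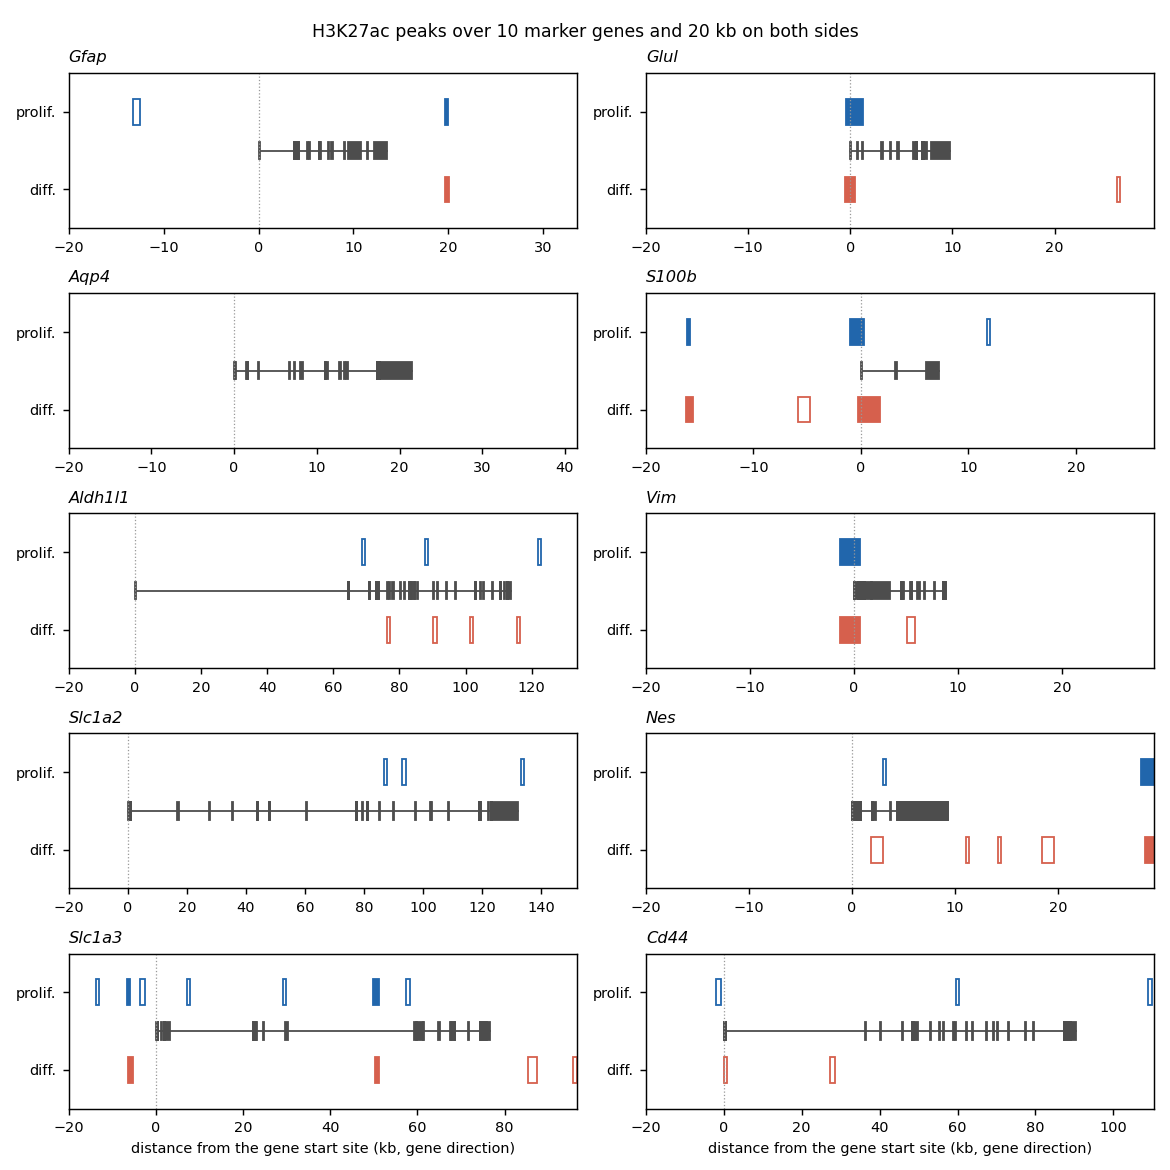
Peaks at the 10 marker genes, with distance from the TSS of the gene record in kb on the horizontal axis, counted in the direction of the gene, over the gene body and 20 kb on both sides. Blue boxes are peaks of the proliferating library and red boxes peaks of the differentiating library, filled where the other list has a peak that shares at least 1 base, dark grey bars are exons, and boxes of short peaks and exons are widened so that they can be seen. Aqp4 has no box, and Glul, S100b and Vim have filled boxes over the start site in both states.

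Glul encodes glutamine synthetase, the enzyme by which astrocytes turn glutamate into glutamine. The gene (ENSMUSG00000026473.15) lies at chr1:153899944-153909723 on the plus strand. The peak over its start site spanned chr1:153899547-153901227 in proliferating cells, was 1681 bp wide and had a fold enrichment of 3.39 with a −log10 q of 3.23. In differentiating cells it spanned chr1:153899459-153900460, was 1002 bp wide and had a fold enrichment of 3.59 with a −log10 q of 4.10. The 2 peaks shared 914 bp and by −log10 q stood above 85.8% of the proliferating and 90.6% of the differentiating list. Both covered exon 1 and part of intron 1 of the transcript Glul-201. The proliferating peak also covered the start sites of Glul-202 and Glul-203, which lay 146 bp and 656 bp beyond the end of the differentiating peak. The start site of Teddm2, which is read in the other direction, lay under both peaks, so the acetylation at this place cannot be assigned to Glul alone. The printed sequence held 2 CCAAT boxes, 1 SP1 box (GGGCGG) and 15 CpG, and it overlapped annotated exons of Teddm2 and Mir8114. A further peak of the differentiating list lay downstream at chr1:153926087-153926365, with a −log10 q of 1.77.

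S100b encodes a calcium-binding protein of astrocytes that is also found in cells of the oligodendrocyte lineage. The gene (ENSMUSG00000033208.7) lies at chr10:76253853-76261159 on the plus strand and has 1 annotated transcript. The start-site peak spanned chr10:76252803-76254104 in proliferating cells and chr10:76253561-76255633 in differentiating cells. Its width was 1302 bp in proliferating and 2073 bp in differentiating cells, and the 2 peaks shared 544 bp. With the start site at 0, the proliferating peak reached from −1050 to 251 bp, whereas the differentiating peak reached from −292 to 1780 bp, into intron 1. Its −log10 q was 1.73 in proliferating cells, above 35.6% of the list, and 3.13 in differentiating cells, above 82.3% of the list. The fold enrichment was 2.89 and 3.00. The printed sequence before the start site held 2 CCAAT boxes and 2 CpG, against a median of 6 CpG over the 32851 upstream windows of the RefSeq table.

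The other peaks near S100b lay away from its promoter. A peak shared by both lists, at chr10:76237681-76237943 in proliferating and chr10:76237601-76238211 in differentiating cells, covered the start site of Prmt2, an arginine methyltransferase gene. The proliferating list had a peak at chr10:76265636-76265898, downstream of the gene, above only 7.48% of its list by −log10 q. The differentiating list had a peak at chr10:76247988-76249114, 4739 bp upstream of the start site, above only 2.99% of its list.

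Vim encodes vimentin, an intermediate filament protein of neural progenitors and of immature and reactive astrocytes. The gene (ENSMUSG00000026728.9) lies at chr2:13573927-13582826 on the plus strand. Its start-site peak had almost the same outline in both states, chr2:13572625-13574542 in proliferating and chr2:13572594-13574561 in differentiating cells. The proliferating peak, 1918 bp wide, lay wholly inside the differentiating peak, 1968 bp wide. The fold enrichment was 3.45 in proliferating and 3.28 in differentiating cells, and the −log10 q was 2.94 and 2.64, above 81.6% and 74.3% of the lists. The peak covered the start sites of Vim-201, Vim-202 and Vim-206. The printed sequence held 1 CCAAT box, 1 SOX motif and 10 CpG. The differentiating list alone had a second peak at chr2:13579040-13579763 over exon 5 of Vim-201, with a −log10 q of 1.37, above 15.6% of the list.

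Cd44 encodes a hyaluronan receptor of the cell surface that is found on astrocyte-restricted precursors and on some astrocytes. The gene (ENSMUSG00000005087.17) lies at chr2:102811141-102901665 on the minus strand. In proliferating cells a peak at chr2:102902454-102903734 lay 789 bp upstream of the start site, was 1281 bp wide and had a −log10 q of 2.20, above 62.7% of the list. In differentiating cells a peak at chr2:102901201-102901479 lay over exon 1, from 186 bp downstream of the start site of the gene record, and had a −log10 q of 2.62, above 73.7% of the list. It covered the start sites of Cd44-204, Cd44-205, Cd44-206 and Cd44-208, transcripts that begin further downstream. The 2 start-site peaks did not overlap, with 974 bases between them. With 1000 bp on both sides of the TSS as the promoter region, Cd44 had a promoter peak in both lists. The bases of the upstream peak were 41.7% annotated repeats, more than in 85.4% of the peaks of its list, while the peak over exon 1 had none. Inside the gene the proliferating list had a peak at chr2:102841411-102841968 and the differentiating list had one in intron 1 at chr2:102873117-102874328, with −log10 q of 1.42 and 2.34.

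**Figure D2:**
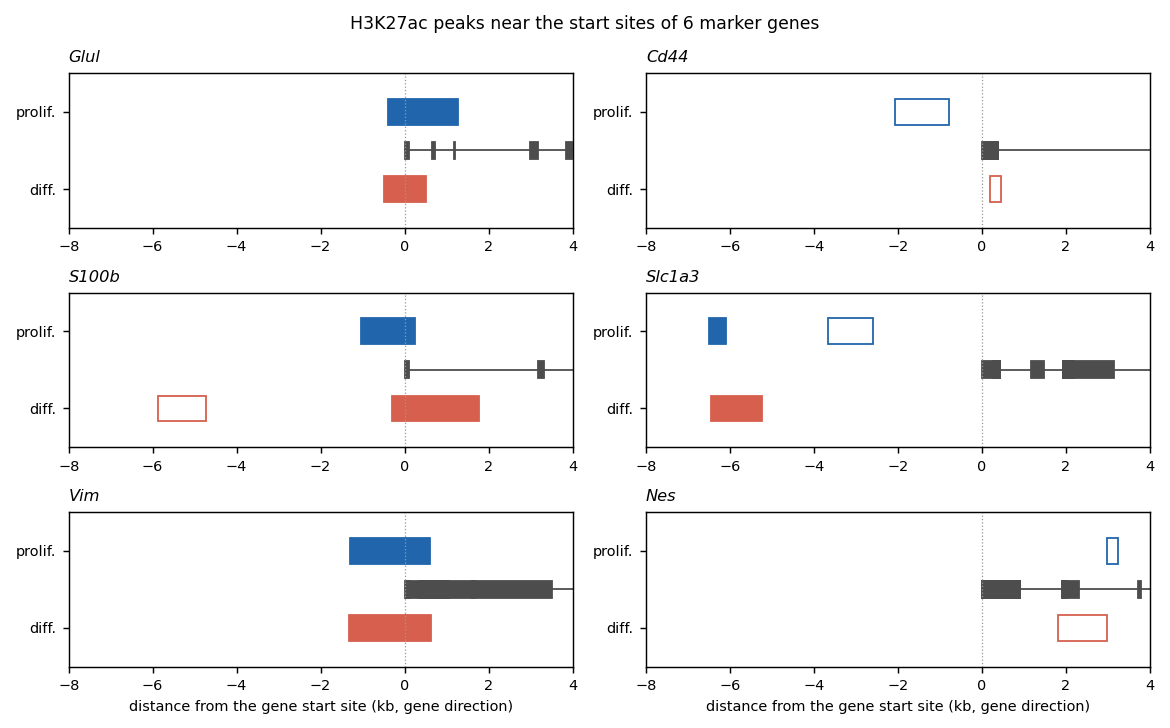
Peaks from 8 kb upstream to 4 kb downstream of the start site of the gene record for Glul, S100b, Vim, Cd44, Slc1a3 and Nes, with distance in kb in the direction of the gene on the horizontal axis. Colours, fill and exons are as in the plot of the whole windows, and a peak that is filled shares at least 1 base with a peak of the other list. The peaks at Glul, S100b and Vim lie over the start site in both states, those at Cd44 lie on opposite sides of it with 974 bases between them, and those at Nes have 1 base between them.

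Nes encodes nestin, an intermediate filament protein of dividing neural progenitors, and the second intron of the gene is known for its neural enhancer. The gene (ENSMUSG00000004891.16) lies at chr3:87971078-87980451 on the plus strand and had no promoter peak in either list. The proliferating list had a peak of the shortest width in that list, 263 bp, at chr3:87974069-87974331, which lay wholly in intron 2 of Nes-201 (chr3:87973117-87974801). It had a fold enrichment of 3.08 and a −log10 q of 1.75, above 36.8% of the list. The differentiating list had a peak of 1167 bp at chr3:87972901-87974067, which covered exon 2 and parts of introns 1 and 2. It had a fold enrichment of 3.65 and a −log10 q of 2.63, above 73.9% of the list. There was 1 base between the 2 peaks, so they were not counted as shared. The printed sequence of the proliferating peak held 5 CpG and 2 copies of CANNTG (E-box), a motif present in 76.4% of the 6626 peaks of this width, and none of the motifs set in capitals.

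Downstream of Nes the differentiating list had 3 peaks without a counterpart, at chr3:87982167-87982445, chr3:87985263-87985541 and chr3:87989521-87990709. Their −log10 q was 1.28, 2.58 and 1.16, above 5.24%, 72.9% and 1.33% of the list. At the edge of the window both lists had a peak over the start site of Bcan, the gene of the matrix proteoglycan brevican, which astrocytes and OPCs produce. It spanned chr3:87999111-88000796 in proliferating and chr3:87999537-88002348 in differentiating cells, and at 1686 bp and 2812 bp it was wider than the other peaks at Nes. The window of Nes held 4.05 peaks per 100 kb in proliferating and 10.1 in differentiating cells, against 0.643 and 0.632 over chromosome 3. These numbers rest on 2 and 5 peaks, and both counts include the peak over the start site of Bcan. The chromosome values cover all bases, with and without genes, so they are no comparison with other gene windows.

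Slc1a3 encodes GLAST, a glutamate transporter of astrocytes and radial glia. The gene (ENSMUSG00000005360.14) lies at chr15:8634124-8710764 on the minus strand and had 7 peaks in proliferating and 4 in differentiating cells. The peak at chr15:8659554-8661008 in intron 3 of Slc1a3-201 had the highest −log10 q among the proliferating peaks of the 10 genes, 6.01, with a fold enrichment of 3.68 and a width of 1455 bp, and ranked above 97.4% of the proliferating list. The differentiating list had a peak wholly inside it, at chr15:8659604-8660458, with a fold enrichment of 2.65 and a −log10 q of 2.52, above 71.8% of its list. This region lay 49756 bp and 50306 bp downstream of the start site of the gene record, and no annotated start site of a protein-coding gene lay under it. The start site of Slc1a3-202, the nearest transcript, was 8048 bp and 8098 bp away.

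A second shared region lay upstream of Slc1a3, at chr15:8716867-8717271 in proliferating and chr15:8715990-8717220 in differentiating cells. The near ends of these peaks were 6103 bp and 5226 bp from the start site and they shared 354 bp. Their −log10 q was 2.27 and 2.02, above 65.3% and 56.1% of the lists. The printed part of this region held 1 TATA box and 8 CpG. The promoter peak of Slc1a3, at chr15:8713354-8714423, was found in proliferating cells alone, began 2590 bp upstream of the start site and was among the weakest of its list, with a −log10 q of 1.20, above 1.56% of the peaks. With a q of at most 0.05 it was not kept, and the number of genes with a promoter peak in proliferating cells was then 4. The other peaks of the proliferating list were in introns 2 and 3 of Slc1a3-201 and 13362 bp upstream. The peak at chr15:8681174-8681456, in intron 3, touched the edge of exon 5 of the processed transcript Slc1a3-207. The other peaks of the differentiating list were downstream at chr15:8614063-8615144 and chr15:8623443-8625339. The window held 6.00 peaks per 100 kb in proliferating and 3.43 in differentiating cells, against 2.70 and 2.70 over chromosome 15. The chromosome values again cover all bases, not gene windows alone.

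Slc1a2 encodes GLT-1, the main glutamate transporter of mature astrocytes. The gene (ENSMUSG00000005089.15) lies at chr2:102658659-102790784 on the plus strand and had no promoter peak. The proliferating list had peaks in intron 5 at chr2:102745310-102746186 and in intron 6 at chr2:102752031-102752293 of Slc1a2-202, with −log10 q of 1.55 and 2.42. Another peak, at chr2:102791823-102792677, lay between Slc1a2 and Cd44, in the windows of both genes, and had a −log10 q of 1.42, above 8.49% of the list. The differentiating list had no peak in the window of 172 kb, which allows no statement that the region lost acetylation. The nearest peak of that list was 58617 bp from the start site.

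Gfap encodes the glial fibrillary acidic protein, the intermediate filament by which astrocytes are usually stained. The gene (ENSMUSG00000020932.14) lies at chr11:102887336-102900912 on the minus strand. The gene body held no peak in either list, and the coding start sites, at positions 102897131 (Gfap-201) and 102897200 (Gfap-202), were 15823 bp or more from the nearest peak. The record of the gene starts further upstream, at position 102900912, with the noncoding transcript Gfap-203. The peak that both lists share, at chr11:102880978-102881308 in proliferating and chr11:102880858-102881226 in differentiating cells, covered the start sites of Eftud2, a splicing factor gene, and Ccdc103. It had a fold enrichment of 4.55 and 3.91 and a −log10 q of 4.06 and 4.14, above 92.2% and 90.8% of the lists, so the strongest peak in the window of Gfap lay over the promoters of its neighbours. The proliferating list also had a peak at chr11:102913388-102914157, 12476 bp upstream, nearer to the start site of Kif18b. Without peaks nearest to the start site of another gene, Gfap had no peak in either list. The printed sequence before the coding start site held none of the motifs set in capitals, no E-box and 2 CpG.

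Aldh1l1 encodes a folate enzyme, 10-formyltetrahydrofolate dehydrogenase, that marks astrocytes across the brain. The gene (ENSMUSG00000030088.15) lies at chr6:90486427-90600203 on the plus strand, and its coding transcript Aldh1l1-203 starts inside the record, at position 90550789. The 3 peaks of the proliferating and the 4 peaks of the differentiating list did not overlap, and neither start site was covered. The proliferating peaks at chr6:90555323-90555614, in intron 1 of Aldh1l1-203, and at chr6:90574367-90574629, in intron 12, had −log10 q of 2.59 and 1.88. Their bases were 95.9% and 70.0% annotated repeats, against a median of 13.0% over the list. In differentiating cells a peak at chr6:90563102-90563380 lay mostly in intron 5 of the same transcript and reached into exon 6. Another, at chr6:90576717-90577701, lay mostly in intron 13 and reached into exon 13. A further peak lay in intron 16 at chr6:90588165-90588443. The last of these had the highest fold enrichment at the 10 genes in that list, 4.24, with a −log10 q of 3.95, above 89.7% of the list. The peak in intron 16 lay 907 bp from the start site of Aldh1l1-204, a transcript annotated as a retained intron. It was of the shortest width in the list, 279 bp, and its bases held no annotated repeat. Downstream of the gene each list had 1 peak, at chr6:90608469-90609375 in proliferating and chr6:90602294-90602572 in differentiating cells, 3744 bp and 2153 bp from the start site of Slc41a3.

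Aqp4 encodes aquaporin-4, the water channel of astrocyte endfeet. The gene (ENSMUSG00000024411.10) lies at chr18:15389496-15410982 on the minus strand. Neither list had a peak in its window of 61.5 kb, and the nearest peaks were 111261 bp from the start site in proliferating and 346719 bp in differentiating cells. Chromosome 18 held few peaks, 0.641 per 100 kb in the proliferating and 0.607 in the differentiating list, against 1.06 and 1.03 over the genome. On this chromosome 64.7% and 64.3% of genes had a peak over the body or within 20 kb.

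By position, 25 pairs of a peak and a gene in the proliferating list divided into 9 in introns, 6 downstream, 4 upstream, 3 over promoter and exon, 2 in the promoter region alone and 1 over an exon. In the differentiating list the 23 pairs divided into 9 downstream, 5 over exons, 3 in introns, 3 upstream and 3 over promoter and exon. A peak that shared any base with an exon was counted over an exon, even where most of it lay in an intron. The start site nearest to the peak was that of another protein-coding gene for 7 peaks in the proliferating and 10 in the differentiating list. These counts take the TSS of each gene record, which for Aldh1l1 places the peaks around its coding start site nearer to Slc41a3. No shares over all gene windows stand beside the counts by position or by nearest start site. They were not read as particular to the markers.

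Peaks that had a counterpart in the other list numbered 8 in each list, which is 33.3% of the proliferating peaks at these genes (95% exact Clopper-Pearson interval 15.6% to 55.3%) and 34.8% of the differentiating ones (16.4% to 57.3%). The same share over all peaks was 29.2% and 30.1%, inside both intervals, which cover counting error only. Where the overlap had to reach 0.5 of both peaks, the shares at these genes were 16.7% and 17.4%, against 16.7% and 17.3% over all peaks. Of the 8 shared peaks, 6 in each list covered the start site of the record of a protein-coding gene, and these were at Glul with Teddm2, S100b, Vim, Prmt2, Bcan and Eftud2 with Ccdc103. The other 2 were the intron and upstream regions of Slc1a3. None of the 16 unshared proliferating peaks and none of the 15 unshared differentiating peaks covered the start site of a gene record, but the differentiating peak over exon 1 of Cd44 covered those of coding transcripts. Over all peaks the share over the start site of a gene record was 31.0% and 34.5% of shared peaks and 2.28% and 5.32% of unshared peaks, in the proliferating and the differentiating list. Those shares include peaks outside gene windows, whereas the peaks at these genes were all taken from such windows. They are therefore no like comparison.

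Shared peaks at these genes ranked between 35.6% and 97.4% by −log10 q in the proliferating list (median 82.3%) and between 56.1% and 90.8% in the differentiating list (median 75.2%). Unshared peaks ranked between 1.56% and 85.0% (median 33.3%) and between 1.33% and 89.7% (median 42.4%). A peak near the calling threshold can be found in 1 library and missed in the other, and how much of the unshared group this makes up was not tested. Peaks of the shortest width of their list, 263 bp and 279 bp, made up 6 of 24 and 7 of 23 of the peaks, or 25.0% and 30.4%, against 22.9% and 17.5% over all peaks. Of the 8 shared peaks 1 in the proliferating and 0 in the differentiating list had this width. No split of all peaks into shared and unshared ones stands beside these ranks and widths. The contrast was therefore not read as particular to these genes. The median width at these genes was 693 bp and 985 bp, against 652 bp and 755 bp in the whole lists. Fold enrichment ran from 2.58 to 4.55 in the proliferating and from 2.51 to 4.24 in the differentiating list, and the list medians were 3.33 and 3.13. In each list 13 of the peaks lay above the list median by −log10 q and 2 lay in its upper 10%. The GC content of the peaks had a median of 48.2% and 50.9%, against 47.1% and 47.4% over the lists.

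**Figure D3:**
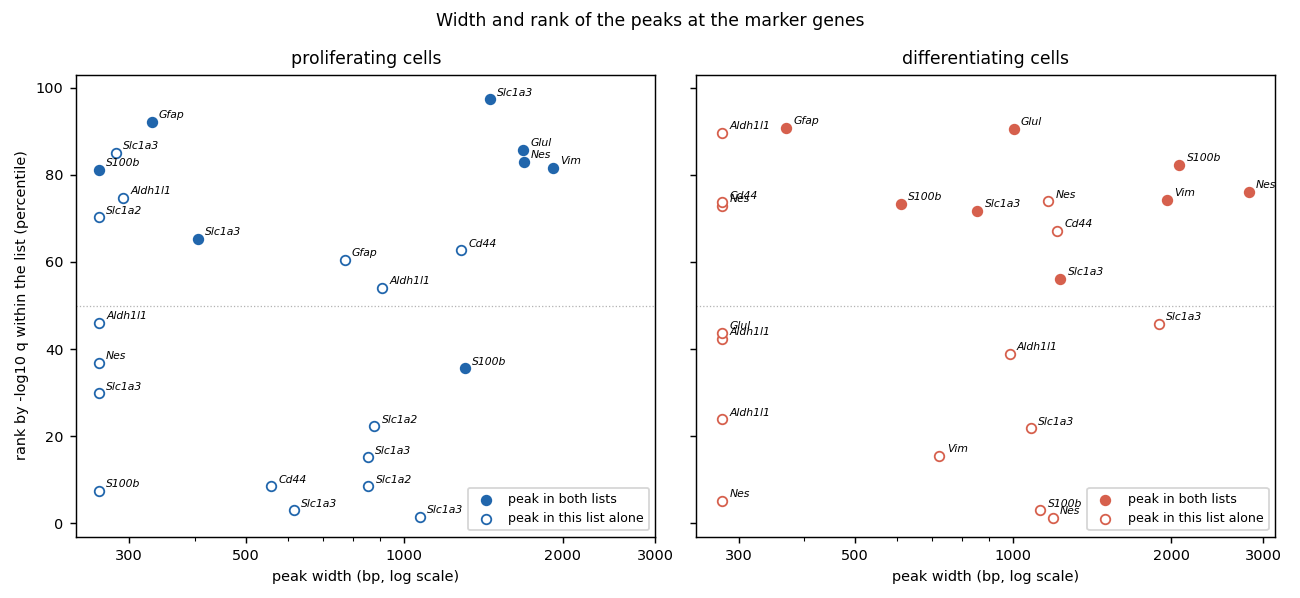
Each point is a peak over or within 20 kb of a marker gene, with its width in bp on a logarithmic horizontal axis and its rank by −log10 q within its own list, in percent, on the vertical axis, for proliferating cells on the left and differentiating cells on the right. Filled points have a counterpart in the other list, and each label is the gene whose window holds the peak, not necessarily the gene whose promoter it covers. Filled points lie above the middle of the list except 1 at S100b, at 35.6% in proliferating cells.

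The motifs in the printed sequences are common ones, and a match is a description of the letters, not a bound site. Of the 32851 windows of 250 bases upstream of RefSeq start sites, 33.8% held CCAAT, 32.7% held GGGCGG, 12.4% held TATAAA, 16.5% held ACAAAG and 66.2% held CANNTG. TTCNNNGAA was found in 7.02%, TGANTCA in 6.75% and the NFI palindrome in 0.0365% of these windows, and none of the 3 was found in the printed sequences. Of 8450 regions of 300 bases centred on shared peaks, 8.07% held TATAAA, as the upstream region of Slc1a3 did, and their median number of CpG was 11 against 8 there. For 9 of the 10 genes a promoter was found in the RefSeq table.

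The same count was made for other genes of astrocytes. Of 15 of them, 5 had a promoter peak in proliferating cells, 4 in differentiating cells and 2 in both. The shares over all protein-coding genes were 23.7%, 27.7% and 17.6%, and 8 of the 15 astrocyte genes had no promoter peak in either list. Aldoc, which encodes the brain form of aldolase, and Ndrg2, a cytoplasmic protein of astrocytes, had a peak in both states. The peak at Aldoc ranked above 34.3% of the proliferating and 93.2% of the differentiating list by −log10 q, and that at Ndrg2 above 69.5% and 83.0%. Sox9, a transcription factor of glial fate, Gja1, which encodes the gap junction protein connexin 43, and Sparcl1, a secreted matrix protein, had a promoter peak in proliferating cells alone, at ranks of 81.5%, 29.3% and 29.5%. Nfia, a transcription factor of the switch to gliogenesis, and Atp1b2, a subunit of the sodium pump, had one in differentiating cells alone, at 55.9% and 47.9%.

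Among 10 further neural progenitor genes, 4 had a promoter peak in proliferating cells and 5 in differentiating cells, against 23.7% and 27.7% of all genes. In this list 5 genes had no promoter peak in either state. Fabp7, a fatty acid binding protein of radial glia, and Hes1, a repressor downstream of Notch, had the highest ranks, 90.4% and 92.9% in proliferating cells and 96.5% and 98.3% in differentiating cells. These values were above that of every promoter peak of the 10 marker genes in the same list. The peaks at Sox2, a transcription factor of neural stem cells, ranked at 60.5% and 45.6%, and those at Hes5, another Notch target, at 37.3% and 66.4%. The 2 peaks ranked for Hes5, chr4:154960858-154961261 in proliferating and chr4:154958280-154958708 in differentiating cells, did not overlap.

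The labelled cell type was checked on 15 genes of the oligodendrocyte lineage, of which 5 had a promoter peak in proliferating and 6 in differentiating cells. The shares over all protein-coding genes were 23.7% and 27.7%, and 9 of the 15 lineage genes had no promoter peak in either list. The lineage transcription factors Olig1, Olig2 and Sox10 had one in both states, at ranks of 97.6%, 73.6% and 95.1% in proliferating cells and 97.2%, 93.6% and 92.5% in differentiating cells. Ugt8a, an enzyme of myelin lipid synthesis, and Gpr17, a receptor of committed precursors, had one in both states too, and Myrf, the regulator of myelin genes, had one in differentiating cells alone. As a share, 5 of 10 marker genes against 5 of 15 lineage genes had a promoter peak in proliferating cells, and 3 of 10 against 6 of 15 in differentiating cells. The marker counts depended on the promoter region. With 1000 bp on both sides of the TSS they were 4 in each state, and with the TSS of every transcript 5 in each. No such counts for the lineage genes stand beside these, so no change between the states was read from this comparison. Markers of other cell types were counted too. Of 10 neuron genes 2 had a promoter peak in each list, against the same 23.7% and 27.7% of all genes. They were Map2 in both, Gad1 in proliferating and Syt1 in differentiating cells. The highest-ranked promoter peaks of Map2 in the 2 lists, chr1:66172406-66172668 and chr1:66174788-66175737, did not overlap. Of 10 microglia genes 0 had one in either list, against 33.8% of all genes.

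**Figure D4:**
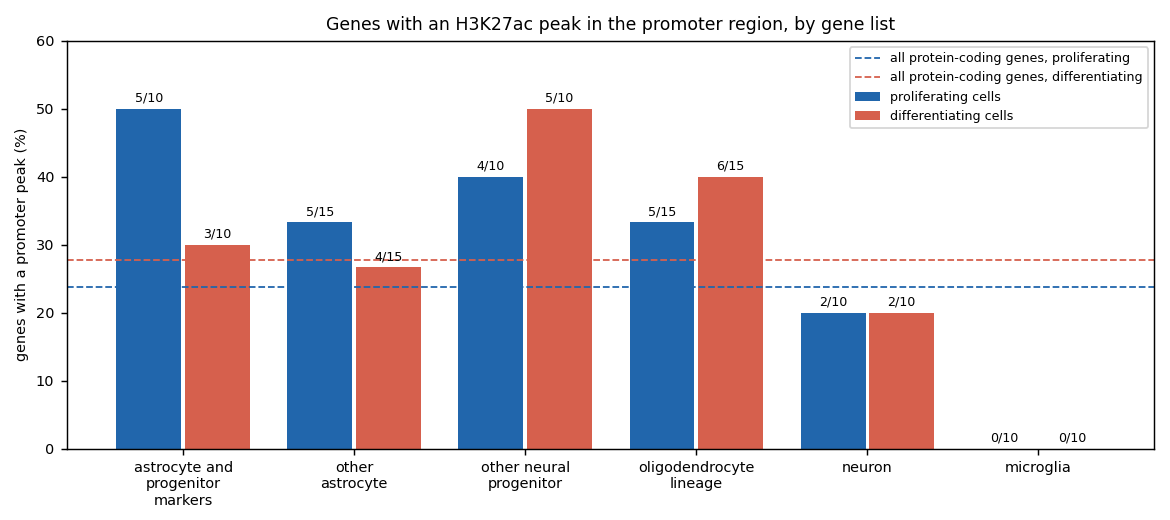
Share of genes with a peak in the promoter region, in percent, for the 10 marker genes and 5 other gene lists, in proliferating cells (blue bars) and differentiating cells (red bars), with the number of genes above each bar and 1 library per state. Dashed lines are the shares over all protein-coding genes, 23.7% and 27.7%. The marker genes are at 5 of 10 and 3 of 10, and the microglia genes at 0 of 10 in both states. With 1000 bp on both sides of the TSS as the promoter region, which is not drawn, 4 marker genes had a peak in each state.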

How the data were processed

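H3K27ac ChIP-seq peaks of 1 proliferating and 1 differentiating Oli-neu library were analysed. The authors aligned the reads with Bowtie2 2.1.0 to GRCm38/mm10, kept uniquely mapped reads, removed PCR duplicates with SAMtools, called broad peaks with MACS2 2.0.10 and removed blacklisted regions with bedtools, as the study's methods and the submitters' processing notes state. An input control is not given in the sources used here. The deposited lists hold a position and a cell of 3 values without a header, read from the order in which MACS2 writes them as a ratio (the fold enrichment) and the p and q of the peak, both as −log10. In 0 peaks of either list was −log10 q above −log10 p. The lowest −log10 q was 1.00 and 1.01, a weaker limit than the q of 0.05 in the methods. Values were ranked only within their own list, and depth per peak is unknown.

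Genes came from GENCODE M21, on the same build. Peaks were assigned by any shared base with the gene body and 20 kb on both sides. All 10 marker genes are named with every peak. Of the other lists, genes with a promoter peak are named and the rest counted, and neighbours are named where their TSS is nearest to a peak. The values of 1 gene of the other lists are not reported here. The genes and lists were chosen with earlier results of these data known. Calculations used Python 3.11.15, numpy 2.4.6, pandas 2.3.3, scipy 1.17.1, pysam 0.24.0 and matplotlib 3.10.9. The promoter count, run on simulated promoter peaks planted at 200 genes, recovered 100% of them, which checks the code alone. Alternatives were other windows, promoter regions, overlaps and peak thresholds, equal numbers of peaks, and peaks nearest to their own gene.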

Additional observations from a re-analysis of the deposited data

How the results depend on the processing

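Of 78 values recomputed under the alternatives, 16 counts or shares moved: counts by over 1.5 times, shares of peaks beyond the 95% interval of the main share. That interval is wide, so a share can change by much without leaving it. With a −log10 q of at least 5, 1 gene (Slc1a3) kept a peak in its window in proliferating cells and in either list, 0 did in differentiating cells, and 0 had a promoter peak in the proliferating, differentiating or either list. That limit left 1 peak at these genes in the proliferating list, with a counterpart for 0%, and 0 in the differentiating list, where no share could be computed. Counting the gene body alone left 13 and 11 peaks, against 24 and 23. In the differentiating list a window of 5 kb gave 15 peaks, 50 kb gave 36, and leaving out peaks nearest to the TSS of another gene gave 13. These follow from counting fewer or more bases or peaks. With at least 0.5 of the peak inside the promoter region, 3 genes had a promoter peak in proliferating cells (Cd44, S100b and Vim). With the TSS of every transcript, 5 had one in differentiating cells, Aldh1l1 and Cd44 being added, Aldh1l1 only through the retained-intron transcript Aldh1l1-204. The share of peaks with a counterpart, 33.3% and 34.8%, fell to 16.7% and 17.4% where 0.5 of each peak had to overlap. A gap of up to 1000 bp gave 41.7% and 43.5%. No share over all peaks stands beside these 2 values, so they were not read as particular to these genes.

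No paired analysis was possible because each state has 1 library and no test was run. Without replicates or counts, a peak in 1 list alone cannot be told apart from a difference in depth or enrichment between the libraries. The study's methods give more uniquely mapped reads for the differentiating than for the proliferating library.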

Other observations

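Peaks over the gene body or within 20 kb were also counted for the other gene lists. They were present at 12 of 15 further astrocyte genes in proliferating and 11 of 15 in differentiating cells, at 8 and 7 of 10 further progenitor genes, at 13 and 12 of 15 oligodendrocyte lineage genes and at 6 and 6 of 10 neuron genes. Microglia genes, without a promoter peak, had such a peak in 6 and 4 of 10 cases. Over all protein-coding genes the share was 62.7% in both lists.

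The start-site peak of Glul had a GC content of 61.7% in proliferating and 63.8% in differentiating cells, and a ratio of observed to expected CpG of 0.737 and 0.698. The start-site peak of S100b had a GC content of 49.0% and 44.6% and a CpG ratio of 0.0768 and 0.224. The list medians of this ratio were 0.212 and 0.223.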
